A study of Mus musculus with 9 samples.

Results

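Collagen transcripts of 3 structural types were followed in gastrocnemius, a calf muscle, of 9 mice of 6 genotypes, with a separate Affymetrix U74Av2 array for each mouse. The group holds every probe set that the platform annotation assigns to 10 named collagen genes, of 8251 genes named on the array. These 10 genes were chosen with earlier results of these data known. All 10 genes were on the array, with 16 probe sets of the 12422 that are not controls, and all 16 passed the filter on dim probe sets, which kept 7453. Of these, 10 probe sets belong to the 5 fibrillar genes Col1a1, Col1a2, Col3a1, Col5a1 and Col5a2, 3 to the basement membrane genes Col4a1, Col4a2 and Col15a1, and 3 to the microfibrillar genes Col6a1 and Col6a2.

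The mice were 1 hDMD x mdx x utrn-/- mouse aged 9 weeks, 2 hDMD x mdx mice aged 24 and 10 weeks, 1 hDMD mouse aged 11 weeks, 1 mdx x utrn-/- mouse aged 5 weeks, 2 mdx mice aged 15 and 13 weeks, and 2 wild-type mice aged 7 weeks. These genotypes are written here without the crossing sign, as hDMD mdx utrn-/-, hDMD mdx and mdx utrn-/-. The mdx mouse carries a mutation in its own dystrophin gene Dmd, utrn-/- mice lack utrophin, the protein most like dystrophin, and hDMD mice have the whole human dystrophin gene besides their own. All mice were male except wild-type 1, a female. The labels give a strain for the wild-type mice alone, C57Bl/DBA2/129OLA-Ev, so that strain, age and genotype cannot be told apart in several comparisons. Replicate numbers only name the mice.

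Collagens are secreted proteins whose 3 chains wind into a triple helix. Type I collagen, made of Col1a1 and Col1a2 chains, and type III collagen, made of Col3a1, form the fibrils of muscle connective tissue, and type V (Col5a1, Col5a2) takes part in starting fibrils and setting their width. Type IV collagen, made of Col4a1 and Col4a2 chains, is the network of the basement membrane around each muscle fibre and vessel, and Col15a1 encodes a collagen of basement membrane zones. Type VI collagen, built of Col6a1, Col6a2 and Col6a3 chains, forms beaded microfilaments between the basement membrane and the interstitial matrix, and mutations in the human genes cause muscle disease. In dystrophic muscle, scarring by such matrix is a textbook feature. Most muscle collagen is made by fibroblasts and not by the fibres. In whole muscle, fewer cells of a type and less RNA per cell cannot be told apart.

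Type I and type IV chains are each made in pairs, whose levels are compared later, and the promoters that were found for these chains are shown. RefSeq start-site windows of build GRCm38.p6, from 250 bases before to 50 bases after the start, were found for 8 of the 10 genes. Col1a1 and Col5a2 had no window in the table used. Col4a1 and Col4a2 lie head to head on chromosome 8 with annotated start sites 21 bases apart, so that their windows, chr8:11312777-11313076 on the minus strand and chr8:11312555-11312854 on the plus strand, share 78 bases. Col1a2 is given from chr6:4505368-4505667 on the plus strand. Capitals mark CCAAT or, for the other strand, its reverse complement ATTGG, which do not overlap each other.
Col4a1: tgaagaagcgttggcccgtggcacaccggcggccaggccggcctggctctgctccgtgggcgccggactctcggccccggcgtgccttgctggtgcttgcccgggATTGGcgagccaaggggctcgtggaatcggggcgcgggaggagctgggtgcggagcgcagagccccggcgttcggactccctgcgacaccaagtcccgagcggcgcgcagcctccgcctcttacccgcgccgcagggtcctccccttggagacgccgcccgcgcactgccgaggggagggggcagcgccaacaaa
Col4a2: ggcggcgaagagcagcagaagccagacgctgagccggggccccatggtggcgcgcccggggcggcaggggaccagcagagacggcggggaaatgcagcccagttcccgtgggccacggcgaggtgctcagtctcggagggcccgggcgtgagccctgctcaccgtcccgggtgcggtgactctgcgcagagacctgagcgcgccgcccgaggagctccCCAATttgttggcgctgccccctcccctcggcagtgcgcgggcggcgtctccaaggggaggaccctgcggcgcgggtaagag
Col1a2: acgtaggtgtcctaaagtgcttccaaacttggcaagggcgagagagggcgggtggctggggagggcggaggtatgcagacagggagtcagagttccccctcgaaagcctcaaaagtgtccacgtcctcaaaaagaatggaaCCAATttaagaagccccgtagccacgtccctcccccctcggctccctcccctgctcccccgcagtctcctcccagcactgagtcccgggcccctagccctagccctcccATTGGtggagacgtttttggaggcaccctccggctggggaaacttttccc
On either strand, CCAAT was found in these 3 genes and in none of the other 5 with a window, where 37.4% of all 32851 mouse windows of that length hold it. The letters GGGCGG, searched on both strands, were found in 5 of the 8 genes (Col1a2, Col4a1, Col4a2, Col5a1 and Col6a2) and in 35.7% of all windows. TATAAA was found for Col3a1 alone, and in 13.6% of all windows. Among the 10 genes, Col3a1 and Col5a2 on chromosome 1, Col6a2 and Col6a1 on chromosome 10, and Col4a1 and Col4a2 are adjacent protein-coding genes.

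Levels are quantile-normalised probe set intensities as log2(intensity + 16), with a floor of 4, and each difference is one of these log2 levels. Levels of different probe sets are not comparable with each other. Hybridisation spike-ins, added in fixed amounts, divided the arrays into 3 bright ones (hDMD mdx 1, mdx 2 and wild-type 1) and 6 dim ones, 10.1-fold apart in median spike-in signal. The actin 3'/5' ratio, a measure of RNA or cRNA integrity, was 1.20 to 1.87 on bright and 0.669 to 0.908 on dim arrays. Brightness therefore crosses genotype in the 3 genotypes with 2 mice, and values within bright and within dim arrays are given beside pooled ones. The probe set for Dmd read 4 to 4.95 and 1 of 2 for Utrn 4.15 to 4.74, near the floor. The other Utrn probe set read 5.28 (hDMD mdx utrn-/-) and 5.64 (mdx utrn-/-) in the utrn-/- mice, within the 4.15 to 6.16 of the other 7, so that it was not lower in the mice labelled as lacking utrophin. Where these probes lie relative to the disrupted parts of the genes was not examined, and the genotypes are taken from the labels alone. All 8 skeletal muscle markers passed the filter, with summed intensities of 13818 to 17634 over the arrays. In each of the 9 arrays the median deviation of all 7453 probe sets from their means lay between -0.0309 and 0.0216. Quantile normalisation brings these medians near 0 in advance, so that they are no check of the arrays.

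Col1a1, the α1 chain of type I collagen, separated mice with and without the human gene on its probe set with the highest mean. Its probe set 94305_at read 8.63 in the hDMD mdx utrn-/- mouse, 7.76 and 8.17 in the hDMD mdx mice and 8.02 in the hDMD mouse. In mice without the human gene it read 9.26 (mdx utrn-/-), 9.66 and 9.38 (mdx), and 9.69 and 9.81 (wild-type). All 4 carriers of the human gene lay below all 5 mice without it, with a gap between 8.63 and 9.26. On the other Col1a1 probe set, 103709_at, the groups overlapped. There the hDMD mdx utrn-/- mouse read 8.22, above the mdx utrn-/- mouse at 7.43 and wild-type 2 at 8.12. The partner chain Col1a2, on probe set 101130_at, read 9.01 in the hDMD mdx utrn-/- mouse, 7.61 and 8.47 in hDMD mdx mice and 8.40 in the hDMD mouse. In the other mice Col1a2 read 9.25 (mdx utrn-/-), 9.70 and 9.22 (mdx), and 9.35 and 10.34 (wild-type). The carriers again lay below the rest, here by a narrower margin of 9.01 against 9.22.

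Col3a1, the chain of type III collagen, did not divide in that way. On probe set 98331_at it read 7.68 in the hDMD mdx utrn-/- mouse, 5.89 and 7.21 in hDMD mdx mice and 7.35 in the hDMD mouse, against 7.43 (mdx utrn-/-), 8.28 and 7.85 (mdx), and 6.45 and 9.48 (wild-type). The wild-type mice spanned most of the range of all 9 arrays, since wild-type 2 was the highest and wild-type 1 lower than all but hDMD mdx 1. Col5a1, the α1 chain of type V, read 7.64 in the hDMD mdx utrn-/- mouse, 6.44 and 7.14 in hDMD mdx mice and 7.31 in the hDMD mouse, against 7.28 (mdx utrn-/-), 8.18 and 7.28 (mdx), and 6.85 and 8.01 (wild-type). Here too the carriers overlapped the other mice. Its partner Col5a2 read 5.78 in the hDMD mdx utrn-/- mouse, 5.30 and 5.86 in hDMD mdx mice and 6.03 in the hDMD mouse. In the other mice Col5a2 read 6.97 (mdx utrn-/-), 7.16 and 6.78 (mdx), and 6.04 and 7.74 (wild-type). The carriers lay below the rest, but wild-type 1 touched the hDMD mouse.

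Of the basement membrane chains, Col4a1 read 7.78 in the hDMD mdx utrn-/- mouse, 8.26 and 8.10 in hDMD mdx mice and 8.37 in the hDMD mouse. It read 8.41 (mdx utrn-/-), 8.95 and 9.62 (mdx), and 9.10 and 9.24 (wild-type) in the mice without the human gene. All carriers were below all the others, with the hDMD and mdx utrn-/- mice nearly level. Col4a2 read 7.01 in the hDMD mdx utrn-/- mouse, 7.61 and 7.96 in hDMD mdx mice and 8.15 in the hDMD mouse, against 8.36 (mdx utrn-/-), 8.30 and 7.89 (mdx), and 7.999 and 8.68 (wild-type). These ranges overlapped, and the hDMD mdx utrn-/- mouse was the lowest for both chains. Col15a1 read 4.96 in the hDMD mdx utrn-/- mouse, 5.82 and 5.08 in hDMD mdx mice and 5.74 in the hDMD mouse, against 5.50 (mdx utrn-/-), 6.52 and 6.53 (mdx), and 6.13 and 5.68 (wild-type). The mdx mice were its highest arrays and nearly equal.

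Of the microfibrillar chains, Col6a1 read 7.91 in the hDMD mdx utrn-/- mouse, 7.07 and 7.73 in hDMD mdx mice and 7.20 in the hDMD mouse, against 7.66 (mdx utrn-/-), 8.27 and 7.65 (mdx), and 7.80 and 8.37 (wild-type). Its groups overlapped. Col6a2 read 6.76 in the hDMD mdx utrn-/- mouse, 6.63 and 6.52 in hDMD mdx mice and 6.55 in the hDMD mouse, against 6.81 (mdx utrn-/-), 7.57 and 7.43 (mdx), and 7.03 and 7.67 (wild-type). For Col6a2 the 4 carriers spanned only 6.52 to 6.76 and lay below the other mice. Over the 16 probe sets, wild-type 2 was the highest array in 10 and hDMD mdx 1, the oldest mouse, the lowest in 8.

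**Figure D1:**
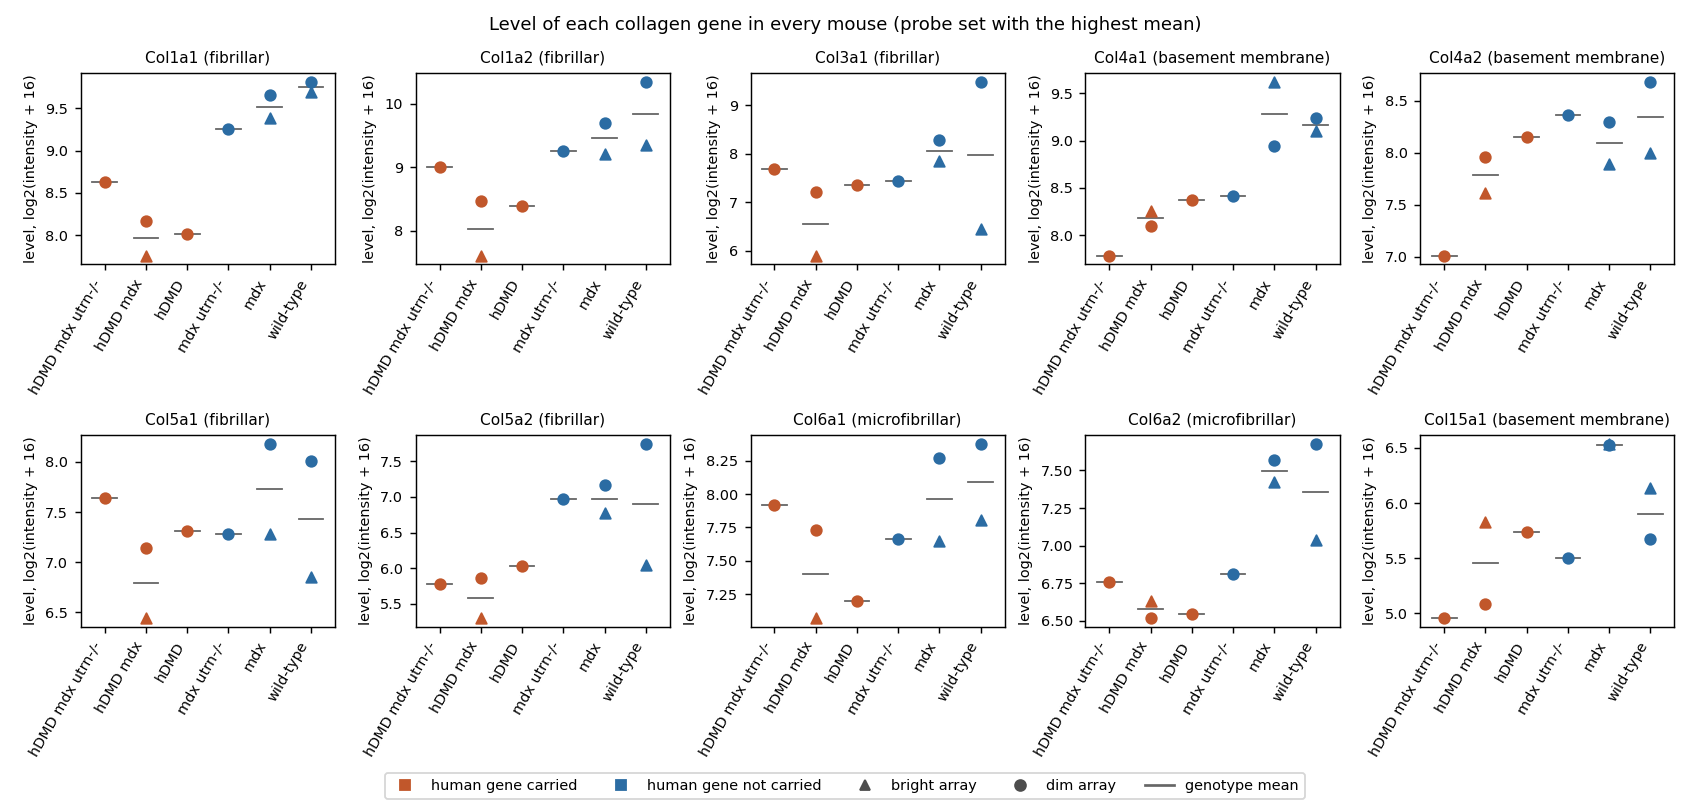
Level of each collagen gene, as log2(intensity + 16) of its probe set with the highest mean, in every mouse by genotype, with human gene carriers in orange and the other mice in blue, triangles for bright and circles for dim arrays, and a grey line at the genotype mean. For Col1a1 the carriers lie between 7.76 and 8.63 and the other mice between 9.26 and 9.81, while for Col3a1 the wild-type mice at 6.45 and 9.48 lie far apart.

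The human gene on the mdx background was examined by setting the 2 hDMD mdx mice against the 2 mdx mice. All 16 collagen probe sets were lower by value in hDMD mdx muscle, with a median difference of -1.09, where the median over all 7453 probe sets was 0.02 and 47.3% were lower. By type the median was -1.37 for fibrillar, -1.08 for basement membrane and -0.76 for microfibrillar probe sets. No collagen passed adjusted p 0.05 in limma, nor did any of the 7453 probe sets (0%). At an unadjusted p under 0.05, 8 of the 16 were lower, beside 1.99% of all probe sets. The hDMD mdx arrays lay wholly below the mdx arrays for 13 of the 16, beside 13.1% of all.

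For Col1a1, hDMD mdx mice averaged 7.96 ± 0.29 and mdx mice 9.52 ± 0.20 (SD, n = 2 each), a difference of -1.56 ± 0.34 (SE) or 2.94-fold. Col1a2 differed by -1.42 ± 0.49, Col3a1 by -1.51 ± 0.95 and Col5a2 by -1.39 ± 0.58. Col3a1 had an SD of 0.93 within hDMD mdx and 0.30 within mdx mice, and of 2.15 within wild-type mice, which enter the shared spread of the fit. Col4a1, of the basement membrane, differed by -1.11 ± 0.36 and Col15a1 by -1.08 ± 0.39, but Col4a2, whose start site adjoins that of Col4a1, by only -0.31 ± 0.39. Col6a2 differed by -0.92 ± 0.36, Col5a1 by -0.94 ± 0.53 and Col6a1 by -0.56 ± 0.42. The limma adjusted p was 1 for each of these genes.

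Within bright arrays 15 of the 16 were lower, with Col1a2 161156_r_at at 0.01, and within dim arrays all 16. The median difference was -1.05 between the bright arrays, hDMD mdx 1 and mdx 2, and -1.06 between the dim arrays, hDMD mdx 2 and mdx 1. With brightness as a block, 14 of the 16 had an unadjusted p under 0.05, beside 4.17% of all probe sets that were lower at that level, and none passed the adjusted limma test, where the smallest adjusted p was 0.301. Scaling each array to a common 75th percentile in place of quantile normalisation gave a median of -0.70, and a pseudocount of 64 gave -0.69. The hDMD mdx mice were aged 24 and 10 weeks and the mdx mice 15 and 13 weeks.

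Over both deficient backgrounds, 3 carriers (hDMD mdx utrn-/- and hDMD mdx) were set against 3 non-carriers (mdx utrn-/- and mdx), with utrophin genotype as a term. Here 15 of the 16 probe sets were lower in carriers, beside 48.4% of all, with a median of -0.65. At an unadjusted p under 0.05, 5 were lower, beside 3.56% of all, and none of the 7453 probe sets passed the adjusted limma test. Col5a2 had the clearest difference, at 5.65 ± 0.30 in carriers and 6.97 ± 0.19 in non-carriers (SD, n = 3 each), or -1.32 ± 0.29 (SE) with a limma adjusted p of 0.385. Col1a1 differed by -1.25 ± 0.32, Col1a2 by -1.03 ± 0.39, Col4a1 by -0.95 ± 0.30 and Col15a1 by -0.90 ± 0.31. The arrays did not overlap for 5 of the 16, beside 5.3% of all, and these were Col1a1 94305_at, Col1a2 101130_at, Col4a1, Col5a2 and Col6a2. With the brightness block the adjusted limma test was passed by 4 of all probe sets (0.0537%) and by no collagen, of which 7 had an unadjusted p under 0.05 and were lower, beside 5.94% of all. The median was -0.51 within dim arrays. The bright arrays of this contrast are the same pair as for hDMD mdx against mdx, and leaving out either utrn-/- mouse reduces the fit to that contrast by construction, so neither gives a further value. A pseudocount of 1 gave -1.02.

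The fibrillar median was -0.79 over both backgrounds, beside -1.37 between hDMD mdx and mdx mice. The single hDMD mdx utrn-/- mouse was also set beside the mdx utrn-/- mouse, both dim. Col1a1 103709_at read 8.22 against 7.43 and Col3a1 102990_at 4.95 against 4.10, higher with the human gene. Also higher with it were Col1a2 161156_r_at, Col3a1 98331_at and 161984_f_at, Col5a1 93472_at and Col6a1 95493_at. The remaining collagen probe sets were lower with it. Among these were the other Col1a1 probe set, 94305_at, at 8.63 against 9.26, Col5a2 at 5.78 against 6.97 and Col4a2 at 7.01 against 8.36. This pair of mice thus had no shared direction over the 16 probe sets. A test of whether the human gene difference itself depended on utrophin gave no collagen past the adjusted threshold in limma. At an unadjusted p under 0.05, 3 of the 16 were past it, beside 4.15% of all: Col3a1 161984_f_at at 2.33 ± 0.58, Col3a1 102990_at at 2.20 ± 0.58 and Col1a1 103709_at at 1.91 ± 0.65 (SE), each with a higher difference between carriers and non-carriers on the utrn-/- background. This contrast has 1 mouse per utrophin-lacking genotype.

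Against wild-type muscle, the 4 human gene carriers were lower in 15 of the 16 probe sets, beside 49.3% of all, with a median of -0.84. The fibrillar median was -0.98, the basement membrane median -0.66 and the microfibrillar median -0.74. At an unadjusted p under 0.05, 8 were lower, beside 1.65% of all, and again no probe set of the 7453 passed the adjusted limma test, where the smallest adjusted p was 0.979. Col1a1 averaged 8.14 ± 0.37 in carriers (SD, n = 4) and 9.75 ± 0.08 in wild-type mice (SD, n = 2), a difference of -1.61 ± 0.32 (SE) or 3.05-fold. Col1a2 differed by -1.47 ± 0.44, Col4a1 by -1.04 ± 0.29, Col5a2 by -1.15 ± 0.47 and Col6a2 by -0.74 ± 0.30. Smaller relative to their errors were Col3a1 at -0.93 ± 0.79, Col15a1 at -0.50 ± 0.36, Col4a2 at -0.66 ± 0.39, Col6a1 at -0.61 ± 0.35 and Col5a1 at -0.30 ± 0.44.

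The size of this contrast rests on wild-type 2. Its median was -0.64 within bright and -1.11 within dim arrays, and -0.37 when wild-type 2 was left out, with Col3a1 then at 0.58 and Col5a1 at 0.28. The scaling and the pseudocount of 64 named above gave -0.55 and -0.54. The arrays did not overlap for 7 of the 16 probe sets, beside 4.25% of all that were lower without overlap. By single genotype, the median against wild-type was -0.77 in the hDMD mdx utrn-/- mouse, -0.97 in hDMD mdx mice, -0.71 in the hDMD mouse and -0.54 in the mdx utrn-/- mouse. The hDMD mouse, which has its own dystrophin and utrophin, read 8.02 for Col1a1 against 9.69 and 9.81 in wild-type mice. It lay below both wild-type mice for 9 of the 16 probe sets, beside 28.1% of all, and above both for 1, beside 32.3% of all. This single mouse was aged 11 weeks and the wild-type mice 7 weeks, so that age and genotype cannot be told apart here.

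A grouping chosen after the values were seen, all 4 carriers against all 5 other mice, gave a median of -0.71, with 9 of the 16 lower at an unadjusted p under 0.05, beside 4.59% of all. Col1a1 94305_at, at 8.14 ± 0.37 in carriers (SD, n = 4) and 9.56 ± 0.23 in the other mice (SD, n = 5), had a difference of -1.42 ± 0.23 (SE) and a limma adjusted p of 0.297, the smallest of the 7453 probe sets. The arrays did not overlap for 5 collagen probe sets, all lower in carriers, beside 1.09% of all. As the grouping followed from the values, these figures are a description. The contrasts share arrays: the hDMD mdx mice enter each contrast of carriers, and the mdx and wild-type mice several.

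**Figure D2:**
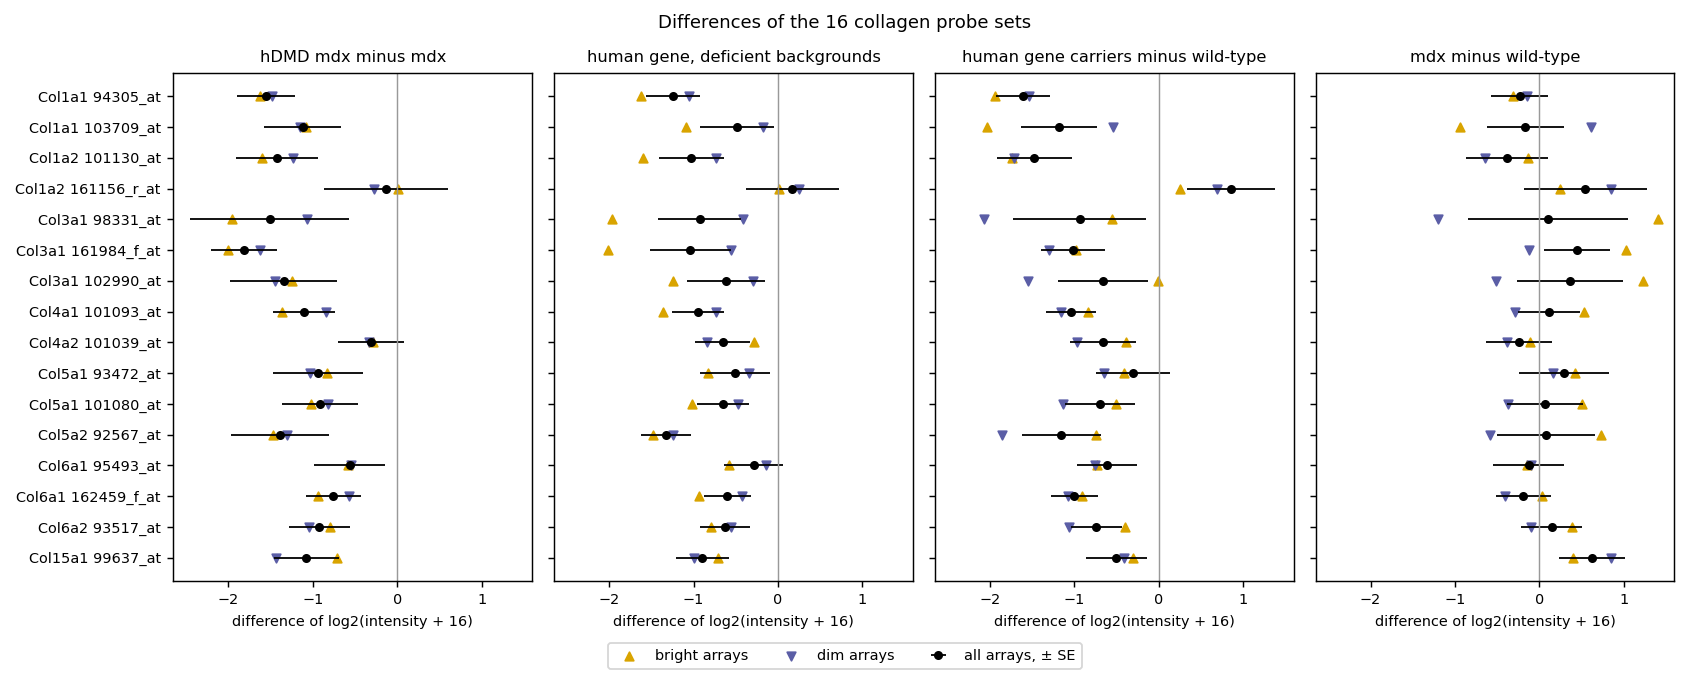
Differences of the 16 collagen probe sets in log2(intensity + 16), tested genotype minus its comparison genotype as each panel title gives it, with points and bars for the estimate ± SE from all arrays and triangles for the differences within bright (upward) and within dim (downward) arrays. All 16 estimates lie below 0 for hDMD mdx minus mdx, with Col1a2 161156_r_at nearest to 0 at -0.13, while for mdx minus wild-type they lie from -0.39 to 0.62.

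Between mdx and wild-type mice the collagens had no shared direction. The mdx mice were males aged 15 and 13 weeks, and the wild-type mice, of which wild-type 1 was female, were aged 7 weeks. Age and genotype therefore cannot be told apart in this contrast. Between the 2 mdx and the 2 wild-type mice, 10 of the 16 were higher and 6 lower by value, with a median of 0.09, and 50% of all probe sets were higher. No collagen had even an unadjusted p under 0.05, beside 1.74% of all, and no probe set passed the adjusted limma test. Col1a1 averaged 9.52 ± 0.20 in mdx and 9.75 ± 0.08 in wild-type mice (SD, n = 2 each), a difference of -0.23 ± 0.34 (SE). Col15a1 had the highest positive difference, 0.62 ± 0.39, at 6.53 ± 0.01 in mdx and 5.91 ± 0.32 in wild-type mice (SD, n = 2 each), and was the only collagen probe set whose mdx arrays both lay above the wild-type arrays, beside 11.2% of all. Col1a1 94305_at was the only one whose mdx arrays, at 9.66 and 9.38, both lay below the wild-type arrays, at 9.69 and 9.81, beside 10.7% of all. The median was 0.40 within bright and -0.22 within dim arrays, and -0.29 without wild-type 1 and 0.43 without wild-type 2. Col3a1, for example, differed by 1.41 within bright and by -1.21 within dim arrays.

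When the 3 dystrophin-lacking mice (mdx and mdx utrn-/-) were set against the 6 with mouse or human dystrophin, 15 of the 16 were higher by value, beside 48.2% of all, with a median of 0.38. None passed the adjusted limma test, which 0.121% of all probe sets did, and none had an unadjusted p under 0.05, beside 5.58% of all. Col5a2 had the largest difference, 6.97 ± 0.19 in dystrophin-lacking (SD, n = 3) and 6.13 ± 0.84 in dystrophin-carrying mice (SD, n = 6), or 0.84 ± 0.43 (SE). Col1a1 averaged 9.43 ± 0.21 in dystrophin-lacking and 8.68 ± 0.88 in dystrophin-carrying mice. The dystrophin-carrying range of Col1a1, 7.76 to 9.81, enclosed the dystrophin-lacking one because wild-type mice were at its upper end and carriers of the human gene at its lower end. With the human gene as a term, the median became -0.14.

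Utrophin genotype was compared on the mdx backgrounds, 2 utrn-/- mice against 4 with utrophin and the human gene as a term. The median was -0.18, with 7 probe sets higher and 9 lower, none with an unadjusted p under 0.05 and none past the adjusted limma test, beside 5.9% and 0% of all. All 3 basement membrane probe sets were lower, Col15a1 by -0.76 ± 0.33, Col4a1 by -0.63 ± 0.32 and Col4a2 by -0.25 ± 0.35 (SE). The fibrillar median was 0.15. Within dim arrays the fibrillar median was -0.24 and 14 of all 16 were lower. Leaving out the mdx utrn-/- mouse gave 0.59 for the median of the 16 and leaving out the hDMD mdx utrn-/- mouse -0.66.

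Each type was also followed in every mouse. The median deviation of the fibrillar probe sets from their means was 0.03 in the hDMD mdx utrn-/- mouse, -0.90 and -0.46 in hDMD mdx mice, -0.15 in the hDMD mouse, -0.07 in the mdx utrn-/- mouse, 0.77 and 0.34 in mdx mice, and -0.26 and 0.92 in wild-type mice. For basement membrane probe sets it was -0.86 in the hDMD mdx utrn-/- mouse, -0.39 and -0.55 in hDMD mdx mice, -0.03 in the hDMD mouse, -0.24 in the mdx utrn-/- mouse, 0.30 and 0.76 in mdx mice, and 0.36 and 0.59 in wild-type mice. The hDMD mdx utrn-/- mouse was thus average for fibrillar and lowest for basement membrane collagens. Microfibrillar deviations ran from -0.45 in the hDMD mouse to 0.66 in wild-type 2. The spread between mice of a genotype was 0.55 for fibrillar, 0.22 for basement membrane and 0.25 for microfibrillar medians (pooled SD over the 3 genotypes with 2 mice). The fibrillar value includes the wild-type mice at -0.26 and 0.92, and without that pair the SDs were 0.31 for fibrillar, 0.24 for basement membrane and 0.060 for microfibrillar medians. Whether the types differ in spread was not tested. Only the mdx 1 array was above the mean in all 16 probe sets, and the hDMD mdx arrays were above it in 1 each.

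**Figure D3:**
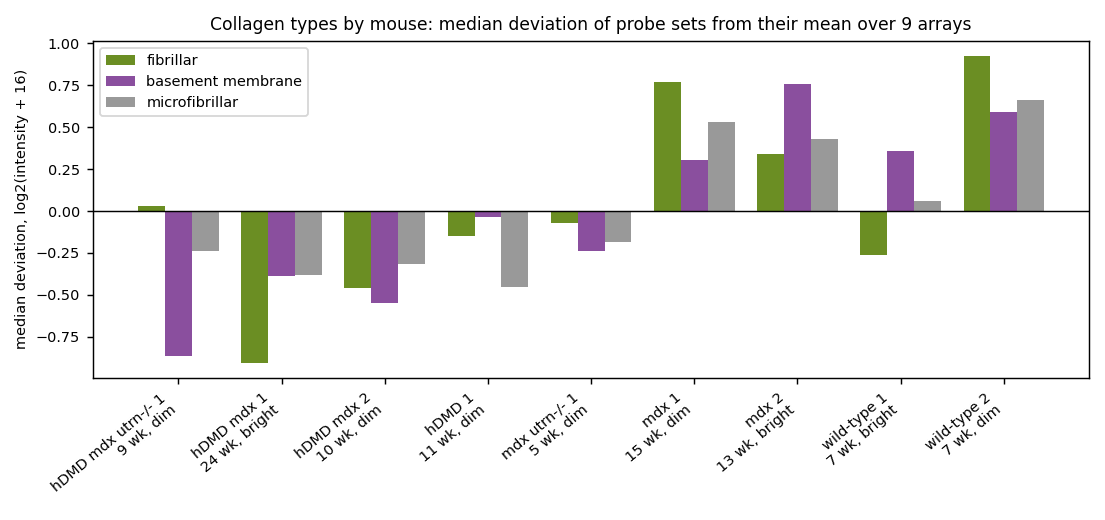
Median deviation of the fibrillar (10), basement membrane (3) and microfibrillar (3) probe sets from their means over the 9 arrays, in log2(intensity + 16), for each mouse with its age and array brightness. The bars of both hDMD mdx mice are below 0 for all 3 types and those of both mdx mice and of wild-type 2 above 0, while wild-type 1 has a fibrillar bar of -0.26 beside a basement membrane bar of 0.36.

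Across the 9 arrays, which share brightness and processing, the 45 pairs of collagen genes had a median Pearson correlation of 0.65, from 0.061 to 0.929. The highest was that of the type I partners Col1a1 and Col1a2. With the means of bright and dim arrays removed, the median was 0.78 and the type I pair 0.976. Over all 6698 named kept probe sets, the 5 nearest to Col1a1 over the 9 arrays were Col1a2 (0.929), Mmp14 (0.897), a membrane-bound protease that cleaves collagen, Rplp0 (0.868), Scpep1 (0.860) and Col6a2 (0.852). Nearest to Col4a1 were Col6a1 162459_f_at (0.956), Rab3il1 (0.956), Ssr2 (0.924), Plxnd1 (0.923) and Nucb1 (0.919), among which its neighbour Col4a2 was not found. With the Col6a1 probe set of the highest mean, 95493_at, Col4a1 had a correlation of only 0.37, or 0.65 with brightness means removed. Nearest to Col6a1 were Col1a2 (0.902), Ptgr1 (0.891), Anxa5 (0.886), Rest (0.880) and H2-DMb1 (0.845). These correlations are descriptions over 9 arrays.

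Probe sets of the same gene mostly moved alike, with 1 exception. Col1a2 161156_r_at had a correlation of 0.10 with 101130_at over the 9 arrays. It read 8.15 in the hDMD mdx utrn-/- mouse, 6.49 and 7.91 in hDMD mdx mice and 8.02 in the hDMD mouse, against 7.38 (mdx utrn-/-), 8.18 and 6.48 (mdx), and 6.24 and 7.34 (wild-type). It was low on all 3 bright arrays and high on dim ones, and with brightness means removed its correlation with 101130_at was -0.45. It was the 1 probe set higher in carriers than in wild-type mice, by 0.85 ± 0.52 (SE), where 101130_at differed by -1.47. The suffix _r marks probe sets for which Affymetrix relaxed its probe selection rules.

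The other pairs agreed better. Col1a1 103709_at had a correlation of 0.78 with 94305_at, and differed by -1.12 ± 0.46 between hDMD mdx and mdx mice, beside -1.56. For Col3a1, 161984_f_at and 102990_at had correlations of 0.69 and 0.88 with 98331_at, and all 3 were lower in hDMD mdx than in mdx mice, by -1.82 ± 0.39, -1.35 ± 0.63 and -1.51 ± 0.95. The error was smallest on 161984_f_at, which read 4.83 and 4.87 in hDMD mdx mice and 6.50 and 6.83 in mdx mice, near the floor in the first. The gap between 98331_at and 161984_f_at averaged 0.91 on bright and 2.22 on dim arrays, with no overlap between them. Col5a1 and Col6a1 pairs had correlations of 0.69 and 0.50, or 0.75 each with brightness means removed, and both probe sets of each gene were lower in hDMD mdx mice.

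**Figure D4:**
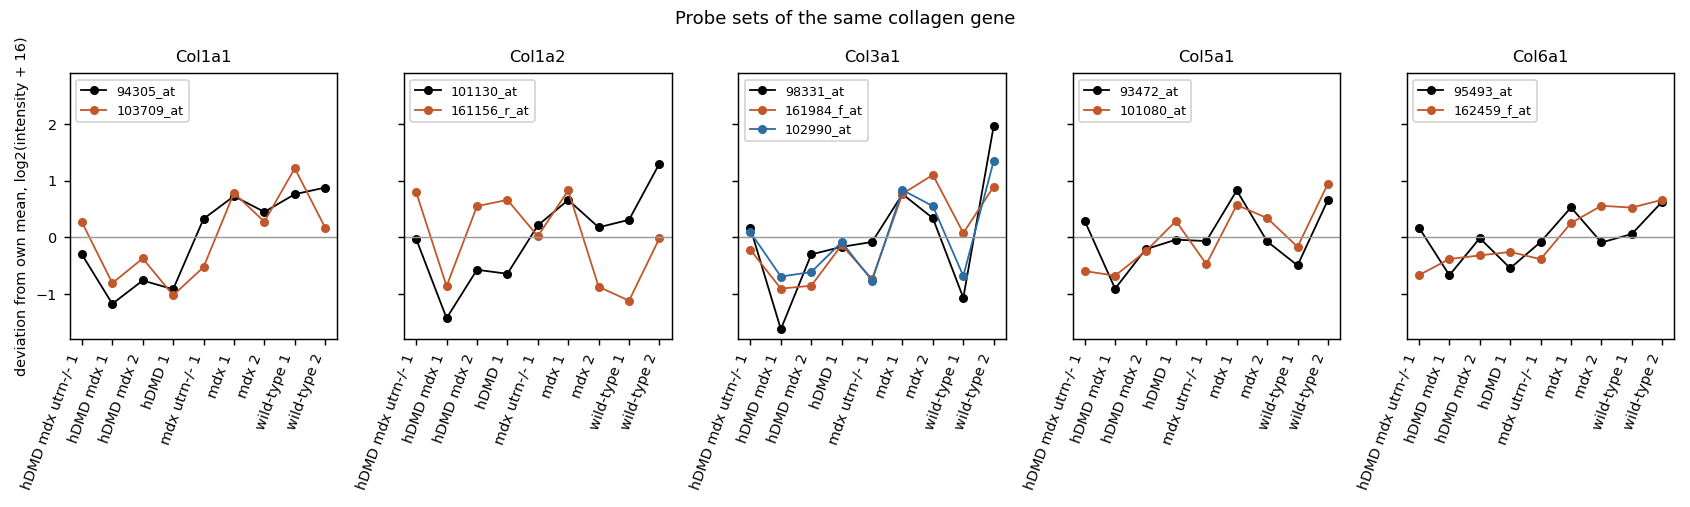
Deviation of each probe set from its own mean over the 9 arrays, in log2(intensity + 16), for the 5 collagen genes with more than 1 probe set, with arrays along the x axis and a line per probe set. The Col1a2 lines lie apart on most arrays, while all 3 Col3a1 lines lie below 0 at hDMD mdx 1 and hDMD mdx 2 and above 0 at mdx 1, mdx 2 and wild-type 2.

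Ages ran from 5 weeks (mdx utrn-/-) to 24 weeks (hDMD mdx 1), and collagen genes are known to be more active in growing tissue. Over the 9 arrays, 15 of the 16 slopes were negative, with a median of -0.0274 per week. None passed the adjusted limma test and 1 had an unadjusted p under 0.05, beside 1.76% of all. Without hDMD mdx 1, the median slope was 0.0365 per week. Any difference among the 6 genotypes was tested with an F test in limma, where 3 of the 16 had an unadjusted p under 0.05, beside 2.95% of all, and none passed the adjusted threshold. With the brightness block these were 10 of 16, beside 11.2% of all, with a smallest adjusted limma p of 0.261.

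Of 24 other collagen genes, 9 passed the filter, and none passed an adjusted limma test in the contrasts of carriers or of mdx mice. Col6a3, the third chain of type VI, averaged 6.73 in hDMD mdx and 8.13 in mdx mice, a difference of -1.40 ± 0.44 (SE), and differed by -1.12 ± 0.38 between carriers and wild-type mice. Col8a1, a short-chain network collagen, differed by -1.52 ± 0.44 between hDMD mdx and mdx mice and by 1.31 ± 0.44 between mdx and wild-type mice, at 6.37 in mdx and 5.06 in wild-type mice. Col7a1, of anchoring fibrils, differed by 1.16 ± 0.50 between mdx and wild-type mice and by 0.78 ± 0.40 between carriers and wild-type mice, and was at the floor in wild-type 2. Between dystrophin-lacking and dystrophin-carrying mice Col8a1 differed by 1.15 ± 0.28 and Col19a1 by 0.53 ± 0.26. On deficient backgrounds carriers differed from non-carriers by -1.22 ± 0.29 for Col6a3 and -1.14 ± 0.40 for Col8a1. The 9 genes together had medians of -0.52 between hDMD mdx and mdx mice (7 of 9 lower) and 0.10 between carriers and wild-type mice (3 of 9 lower).

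Of 26 genes for folding, processing and cross-linking of collagen, 15 passed the filter. All 15 were lower by value in carriers than in wild-type mice, with a median of -0.35, and none passed the adjusted limma test. Within bright arrays the median was -0.13 and within dim arrays -0.73. Lox, the enzyme that starts cross-links, averaged 4.89 in carriers and 6.18 in wild-type mice (-1.28 ± 0.34, SE), and 4.77 in hDMD mdx and 6.11 in mdx mice (-1.34 ± 0.45). Sparc, a collagen-binding matrix protein, differed by -0.93 ± 0.35 between carriers and wild-type and by -1.24 ± 0.32 between hDMD mdx and mdx mice. In the other direction, P4ha2, a catalytic subunit of the prolyl hydroxylase that stabilises the helix, averaged 6.39 in hDMD mdx and 5.25 in mdx mice (1.14 ± 0.42). Its partner subunit P4hb and the other catalytic subunit P4ha1 differed by 0.90 ± 0.62 and 0.43 ± 0.34 in that contrast. Between mdx and wild-type mice P4ha2 differed by -1.18 ± 0.42 and P4hb by -2.04 ± 0.62, where P4hb differed by -0.74 within bright and -3.35 within dim arrays and was at the floor in mdx 1. Between dystrophin-lacking and dystrophin-carrying mice P4hb differed by -1.43 ± 0.65 and P4ha1 by -0.55 ± 0.24. Serpinh1, the collagen chaperone HSP47, differed by -0.70 ± 0.31 and Lox by -0.93 ± 0.39 between carriers and non-carriers on deficient backgrounds. Between hDMD mdx and mdx mice 10 of the 15 were lower and 5 higher. Lox and Sparc were lower and P4ha2 higher at an unadjusted limma p under 0.05, beside 2.88% of all probe sets in either direction. Between mdx and wild-type mice 9 of the 15 were lower.

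Of 21 receptors and regulators, 13 passed the filter, and their medians were 0.06 between hDMD mdx and mdx mice and -0.02 between carriers and wild-type mice, close to those of all probe sets. None passed the adjusted limma test. Pdgfra, a receptor that marks muscle fibroblasts, averaged 4.53 in carriers and 6.74 in wild-type mice (-2.22 ± 0.61, SE), but the difference was -0.32 within bright and -3.06 within dim arrays, and it was at the floor in 3 carriers. Ccn2, a growth factor of connective tissue, averaged 4.52 in carriers and 5.87 in wild-type mice (-1.35 ± 0.48). The other receptors and regulators with the smallest p values had none under 0.05 before adjustment. Smad7, an inhibitor of TGF-beta signalling, differed by 0.82 ± 0.44 and Pdgfrb by -0.49 ± 0.34 between hDMD mdx and mdx mice, and Smad7 by -0.91 ± 0.44 and the collagen receptor Ddr2 by 0.68 ± 0.41 between mdx and wild-type mice. Pdgfra differed by -1.04 ± 0.66 and Tgfb2 by 0.39 ± 0.31 between carriers and non-carriers on deficient backgrounds, and Ddr2 by 0.41 ± 0.32 and Tgfb3 by -0.27 ± 0.20 between dystrophin-lacking and dystrophin-carrying mice.

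Fibroblast and macrophage marker lists were lower by value beside the collagens in hDMD mdx mice, and other cell type lists were not all so. Between hDMD mdx and mdx mice the median was -0.19 for 8 endothelial markers (6 lower), -0.21 for 3 Schwann markers (2 lower), 0.15 for 6 smooth muscle and pericyte markers (3 lower), 0.34 for 3 adipocyte markers (1 lower) and 0.52 for 3 tendon markers (all higher). The part of these cells in the collagen values was not tested. All 8 fibroblast markers passed the filter, with summed intensities of 334 in the hDMD mdx utrn-/- mouse, 512 and 429 in hDMD mdx mice and 527 in the hDMD mouse, against 701 (mdx utrn-/-), 953 and 900 (mdx), and 750 and 1256 (wild-type). Every carrier was below every other mouse, as for Col1a1 94305_at and for 1.09% of all probe sets. That grouping was chosen after the values were seen, so this is a description. Of the 8, 6 were lower in hDMD mdx than in mdx mice (median -0.52) and 8 lower in carriers than in wild-type mice (median -0.63), none past the adjusted limma test. Fn1, fibronectin, differed by -1.24 ± 0.41 (SE) between hDMD mdx and mdx mice and by -1.64 ± 0.46 between carriers and wild-type mice. S100a4, which macrophages also express, averaged 7.68 in dystrophin-lacking and 5.80 in dystrophin-carrying mice and was higher in the dystrophin-lacking ones by 1.88 ± 0.29 (SE, limma adjusted p = 0.0401).

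Of 7 macrophage markers, 6 passed the filter (not Adgre1), and their sums were 116 in the hDMD mdx utrn-/- mouse, 206 and 191 in hDMD mdx mice and 193 in the hDMD mouse, against 710 (mdx utrn-/-), 1236 and 838 (mdx), and 176 and 843 (wild-type). All 6 were lower in hDMD mdx than in mdx mice, with a median of -1.89, and wild-type 2 stood with the dystrophin-lacking mice. Lyz2 was at the floor in the hDMD mdx utrn-/- mouse, and no other kept macrophage marker was at 0 in any array. Of 6 adipocyte markers 3 passed the filter, and wild-type 2 had the highest sum, 1982, where the other arrays had 189 to 1131. Of 6 tendon markers 3 passed, and wild-type 1 had the highest sum, 512, where the other arrays had 68.8 to 270. Wild-type 2, the highest array for most collagens, was thus also the highest for fibroblast and adipocyte markers. Sums of the 8 endothelial markers were 425 to 694 in carriers and 570 to 957 in the other mice, and those of the 6 smooth muscle and pericyte markers 210 to 387 in carriers and 256 to 421 in the other mice. The 3 Schwann markers kept of 5 summed to 76.8 to 195 in carriers and 98.4 to 295 in the other mice.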

How the data were processed

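RNA of gastrocnemius muscle from 9 mice was labelled and hybridised to Affymetrix U74Av2 arrays, per the labels' protocols. The deposited table holds linear probe set intensities, of which 19.4% to 29.9% per array are at or below 0. How they were summarised and scaled is not given in the sources used here. Deposited intensities of the 12422 probe sets that are not controls were quantile normalised, set to 0 where negative, increased by a pseudocount of 16 and taken to log2, which understates the change of dim genes. Array medians had been 1.47 to 45.6. Probe sets with a mean above the 40th percentile (log2 4.46) were kept. limma 3.58.1 in R 4.3.3 fitted 1 mean per genotype over all arrays, or the classes named. Tests took both directions, with Benjamini-Hochberg adjustment over 7453 probe sets and a threshold of 0.05. Single-mouse genotypes took their spread from the genotypes with 2. The precision is limited by the number of arrays.

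Gene names came from the platform annotation, updated through Entrez identifiers, with 10833 probe sets of 1 symbol, 396 of several and 1193 unnamed. A gene was represented by its probe set with the highest mean. The named genes were every collagen probe set, the genes of the 3 collagen-related lists that passed the test or else the 2 with the smallest p per contrast, and the 5 nearest probe sets by correlation. The members and lists were chosen with earlier results of these data known. Alternatives were other scalings, pseudocounts, filters, covariates and arrays left out. In arrays simulated from these means and spreads, 28% of 50 probe sets changed by 2 log2 units and 62% of 50 changed by 3 were called between hDMD mdx and mdx mice over 7453 probe sets, and none of 50 changed by 1. Promoter sequences are from RefSeq.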

Additional observations from a re-analysis of the deposited data

Results flagged for a closer look

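Col5a2 probe set 92567_at read 7.74 in wild-type 2, far above the other 5 dystrophin-carrying arrays, the nearest of which read 6.04. Col1a2 probe set 161156_r_at read 6.49 in hDMD mdx 1, far below the other 3 human gene carriers, the nearest of which read 7.91. The hDMD mdx 1 array is the only bright one among the carriers. On the other bright arrays this probe set read 6.24 (wild-type 1) and 6.48 (mdx 2), and on dim arrays 7.34 to 8.18. The part of brightness in the flagged value was not tested. Over 32 groups of arrays examined for such outliers, chance alone marks about 1 in 20.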

How the results depend on the processing

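No collagen probe set passed the adjusted limma test under any of the 135 combinations of contrast and setting run. Of 860 single-gene values under alternatives, 30 turned their sign. In the contrast of dystrophin-lacking with dystrophin-carrying mice, the human gene as a term gave a median of -0.14, with Col1a1 at -0.32, Col1a2 at -0.46, Col3a1 at -0.11, Col4a1 at -0.18, Col4a2 at -0.16, Col6a1 at -0.23 and Col6a2 at -0.085. Dim arrays alone gave Col3a1 -0.074, and leaving out each array in turn gave Col6a1 -0.025 to 0.32. Using 161156_r_at for Col1a2 gave -0.0099 there, 0.55 for mdx against wild-type, 0.17 for carriers against non-carriers on deficient backgrounds and 0.85 for carriers against wild-type. Between mdx and wild-type mice, Col3a1 was -0.12 with scaling to the 75th percentile and -0.023 with a pseudocount of 64. Leaving out each array gave there a median of -0.29 to 0.43, Col1a2 -0.88 to 0.11, Col3a1 -1.42 to 1.62, Col4a1 -0.22 to 0.45, Col4a2 -0.58 to 0.096, Col5a1 -0.29 to 0.87, Col5a2 -0.77 to 0.93, Col6a1 -0.44 to 0.18 and Col6a2 -0.18 to 0.46. Between hDMD mdx and mdx mice the median was -0.70 with scaling to the 75th percentile, -0.69 with a pseudocount of 64 and -1.22 to -0.94 with arrays left out, always lower. On deficient backgrounds carriers had a median of -1.02 with a pseudocount of 1 and -1.09 to -0.56 with arrays left out, where -1.09 is by construction the hDMD mdx against mdx value. Carriers against wild-type had -1.27 with brightness and age as terms, chosen after seeing the data, and -1.09 to -0.37 with arrays left out, with Col3a1 at -2.45 to 0.58, Col5a1 at -0.88 to 0.28, and Col5a1 at 0.14 with age as a term. The utrn-/- median was -0.66 to 0.59 with arrays left out. The median slope with age was 0.0232 per week in dim arrays and -0.0406 to 0.0365 with arrays left out. The cause of these moves was not tested.

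No paired analysis was possible because replicate numbers only name the mice. The brightness division was derived from the spike-ins of these arrays. The contrasts rest on 1 to 6 mice a group, 3 genotypes have 1 mouse, and the scale of the deposited intensities is unknown. Low intensities near the floor limit Col3a1 102990_at and 161984_f_at, Col5a1 101080_at, Col6a1 162459_f_at and Col15a1.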
